A study of Homo sapiens with 9 samples.

Results

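The 7 genes described here are those that make, bind or break down hyaluronan in a bulk RNA-seq experiment on AC16 cells. They are CEMIP, CEMIP2, HYAL2 and HYAL3 (breakdown), HAS2 and HAS3 (synthesis) and CD44 (receptor). They were taken from the deposited count table by their Ensembl identifiers, and they are 7 of its 58299 genes. CEMIP was chosen by its own counts, which were lower after 72 h of CDDO-Me than in DMSO, so its values are given as a description, with no test in any comparison. The other 6 were added as genes of the same pathway, and all 7 passed the filter on low counts.

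AC16 is a dividing human cell line that was derived by fusing ventricular cardiomyocytes of adults with fibroblasts transformed by SV40. There were 3 groups of 3 libraries of polyadenylated RNA, all from AC16 cells with no genetic change named. The DMSO group had vehicle (0.1%) for 72 h, the CDDO-Me 24 h group had 100 nM CDDO-Me for 24 h, and the CDDO-Me 72 h group had the same dose for 72 h. CDDO-Me, also named bardoxolone methyl, belongs to the synthetic triterpenoids and activates the transcription factor NRF2 by binding its repressor KEAP1, and the series title places the experiment in work on doxorubicin toxicity. No doxorubicin is named in the treatment labels of these samples. Some titles and the design text write CDDO where the treatment label has CDDO-Me. The only vehicle group analysed here is that of 72 h, so the comparison of CDDO-Me 24 h with DMSO also differs in time under treatment. Whether replicates came from separate cultures is not said, and every p-value here reflects the scatter of these libraries, which may be technical.

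Hyaluronan is a long unbranched sugar polymer of the extracellular matrix that is not attached to a protein core. Synthases of the HAS family build it at the plasma membrane from UDP-glucuronic acid and UDP-N-acetylglucosamine and push it out of the cell, where it holds water and binds matrix proteins such as versican. CEMIP, its transmembrane relative CEMIP2 (also called TMEM2) and GPI-anchored HYAL2 take part in cutting hyaluronan. Pieces taken up are degraded in lysosomes by hyaluronidases and exoglycosidases. CD44 is the main cell-surface receptor. In the heart, HAS2 is known for its need in the embryo, where hyaluronan fills the cushions that become valves, and in adults hyaluronan is made largely by fibroblasts and other stromal cells.

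The 9 libraries held 16898977 to 27910031 counts. The targets of NRF2 that checked the treatment were higher in treated cells: DMSO libraries had 449 ± 40.3 CPM of NQO1 (mean ± SD, n = 3), CDDO-Me 24 h 1879 ± 255.9 and CDDO-Me 72 h 3348 ± 40.5. A pair of libraries stood apart from their groups. The biological coefficient of variation between CDDO-Me 24 h replicate 3 and its fellow replicates was 20.9% and 19.9%, against 6.38% between those 2, and it was 12.8 to 13.5% from the CDDO-Me 72 h libraries. DMSO replicate 1 was at 12.1% and 13.9% from the other DMSO libraries, which were 7.79% apart. HMOX1 showed the same split, with 312 ± 288 CPM at 24 h between 23.8 ± 1.84 in DMSO and 816 ± 66.7 at 72 h. Of 14 cardiac muscle markers only GATA4 passed the filter, and MYH6, MYH7, MYL2, RYR2, PLN and NKX2-5 had 0 counts in all 9 libraries. All 9 fibroblast markers were above 1 CPM on average in every group, and none of 4 endothelial markers was. Of 3 leukocyte markers CD3E was at 0 and PTPRC at 1.19 ± 0.33 CPM in DMSO. Some calls and counts below change when CDDO-Me 24 h replicate 3 is left out, and the main ones are also given without it. CPM are counts scaled to a common library total with TMM factors, and RPKM, used to compare genes with each other, divides CPM by the exonic length in kb.

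CEMIP (ENSG00000103888) is on chromosome 15, positions 80779343 to 80951776, plus strand of GRCh38, with 7621 exonic bases. It is the gene for which the set was chosen, so the 250 bases before its RefSeq start are shown (RefSeq, GRCh38.p14, chr15:80779120-80779369, plus strand, 5′ to 3′). The capitals mark a TATAAA box core that begins 30 bases before the start, and a match to the antioxidant response element core TGAGNNNGC on the minus strand that begins 220 bases before it and reads GCGGGCTCA on the strand shown. NRF2 binds such elements, and these letters alone do not show binding. The last 27 bases lie inside the first exon of the deposited table, whose start is further upstream.
CEMIP: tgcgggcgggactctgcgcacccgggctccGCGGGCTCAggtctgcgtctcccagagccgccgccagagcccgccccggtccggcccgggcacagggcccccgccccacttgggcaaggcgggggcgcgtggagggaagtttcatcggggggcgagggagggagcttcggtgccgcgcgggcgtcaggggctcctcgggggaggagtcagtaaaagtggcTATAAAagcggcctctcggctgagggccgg

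A TATAAA was found in 10.7% of 35116 RefSeq windows of the same length, and a TGACNNNGC or TGAGNNNGC in 23.9%, both strands counted. Of the 7 genes, 6 had a window (7 windows in all). CD44 held GCTTAGTCA (TGACNNNGC on the minus strand) 111 bases before its start. One HYAL3 window held GCGGACTCA at 104 and TGAGTCGGC at 48 bases before the start, both matches to TGAGNNNGC. The windows of CEMIP2, HAS3 and HYAL2 held none of these motifs, and no window of the members held the AP-1 element TGACTCA or its reverse TGAGTCA, which 4.2% of all windows held. Inside exons of the deposited table lay all 250 bases of the CD44 and CEMIP2 windows and 161 of HYAL2. The same held for 63 bases of the HYAL3 window with motifs, and for 0 of its other window and of HAS3. The CEMIP window was 74.4% G and C, against a median of 58% over all windows.

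CEMIP, which binds hyaluronan and drives its depolymerisation in fibroblasts, was lower in CDDO-Me at both times. It was at 342, 345 and 333 CPM in DMSO replicates 1 to 3, at 212, 201 and 76.1 CPM in CDDO-Me 24 h, and at 76.1, 74.5 and 78.8 CPM in CDDO-Me 72 h. Every treated library was below every DMSO library, as in 6.74% of all genes tested at 24 h and 15.2% at 72 h, from which nothing is read for CEMIP since its fall chose it. The libraries of CDDO-Me 24 h were not alike: replicates 1 and 2 lay between the other groups, and replicate 3 lay at the level of CDDO-Me 72 h, with a log2 difference of -0.01 from their mean and of -1.44 from the mean of replicates 1 and 2. Group means were 340 ± 6.23, 163 ± 75.6 and 76.5 ± 2.18 CPM (SD, n = 3 each). These values rest on 1404 to 6889 counts a library. The log2 fold change against DMSO was -2.15 at 72 h (4.45-fold lower, 77.5% less) and -1.06 at 24 h (2.09-fold lower). Without CDDO-Me 24 h replicate 3, the value at 24 h was -0.72 (1.65-fold lower), that at 72 h was -2.15, and the difference of CDDO-Me 72 h from 24 h went from -1.09 to -1.43. In bulk RNA, fewer cells that express a gene and less of its RNA per cell cannot be told apart.

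Other values moved beside CEMIP, and their part in its difference was not tested. The summed level of 4 epithelial markers, of which CDH1, KRT8 and KRT18 were above 1 CPM, was 204 to 250 CPM in DMSO, 143 to 206 in CDDO-Me 24 h and 121 to 129 in CDDO-Me 72 h. KRT18 is the largest part of that sum, at 193 ± 16.9 CPM in DMSO and 96.2 ± 3.53 at 72 h. The lowest CDDO-Me 24 h library in the sum was replicate 3, as it was for KRT8 and KRT18. CDH1 and EPCAM went the other way: in replicates 1 to 3 CDH1 was at 0.990, 0.962 and 2.85 CPM and EPCAM at 0.524, 0.405 and 0.621. At 72 h CDH1 overlapped DMSO. The 9 fibroblast markers summed to 19811 to 24593 CPM in DMSO, 17279 to 24073 at 24 h and 19446 to 19881 at 72 h. COL1A1 is the largest part of that sum. Within the list 4 of 9 fell at 72 h and 0 rose in edgeR, where 3.13% of all genes fell and 2.89% rose. In the fit without CDDO-Me 24 h replicate 3, 4 fell and 1 rose, where 12.9% of all genes passed and 6.62% were lower. POSTN went from 41.7 ± 5.07 CPM in DMSO to 4.13 ± 0.45, FAP from 52.8 ± 7.16 to 21.7 ± 1.01, PDGFRA from 33.6 ± 2.67 to 19.9 ± 1.35 and FN1 from 7197 ± 1751 to 3926 ± 58.1, while COL1A1, VIM and DDR2 overlapped DMSO. COL1A2 went up from 2928 ± 150 CPM in DMSO to 3640 ± 102 at 72 h, and THY1 down from 341 ± 4.99 to 304 ± 5.42. The retained transcripts MALAT1, NEAT1, KCNQ1OT1 and MEG3, which stay largely in the nucleus, summed to 276, 183 and 139 CPM in DMSO, 295, 307 and 114 in CDDO-Me 24 h, and 147, 121 and 113 in CDDO-Me 72 h. Replicate 3 was again the low library at 24 h. Of 7 mitotic genes, 0 passed the adjusted edgeR threshold in the 3 comparisons (2.15%, 6.02% and 1.02% of all genes), with 0, 1 and 1 at an unadjusted p under 0.05. Without CDDO-Me 24 h replicate 3, 1, 2 and 1 passed the adjusted threshold, where 10.8%, 12.9% and 12% of all genes did. In that fit 3, 2 and 3 had an unadjusted p under 0.05.

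**Figure D1:**
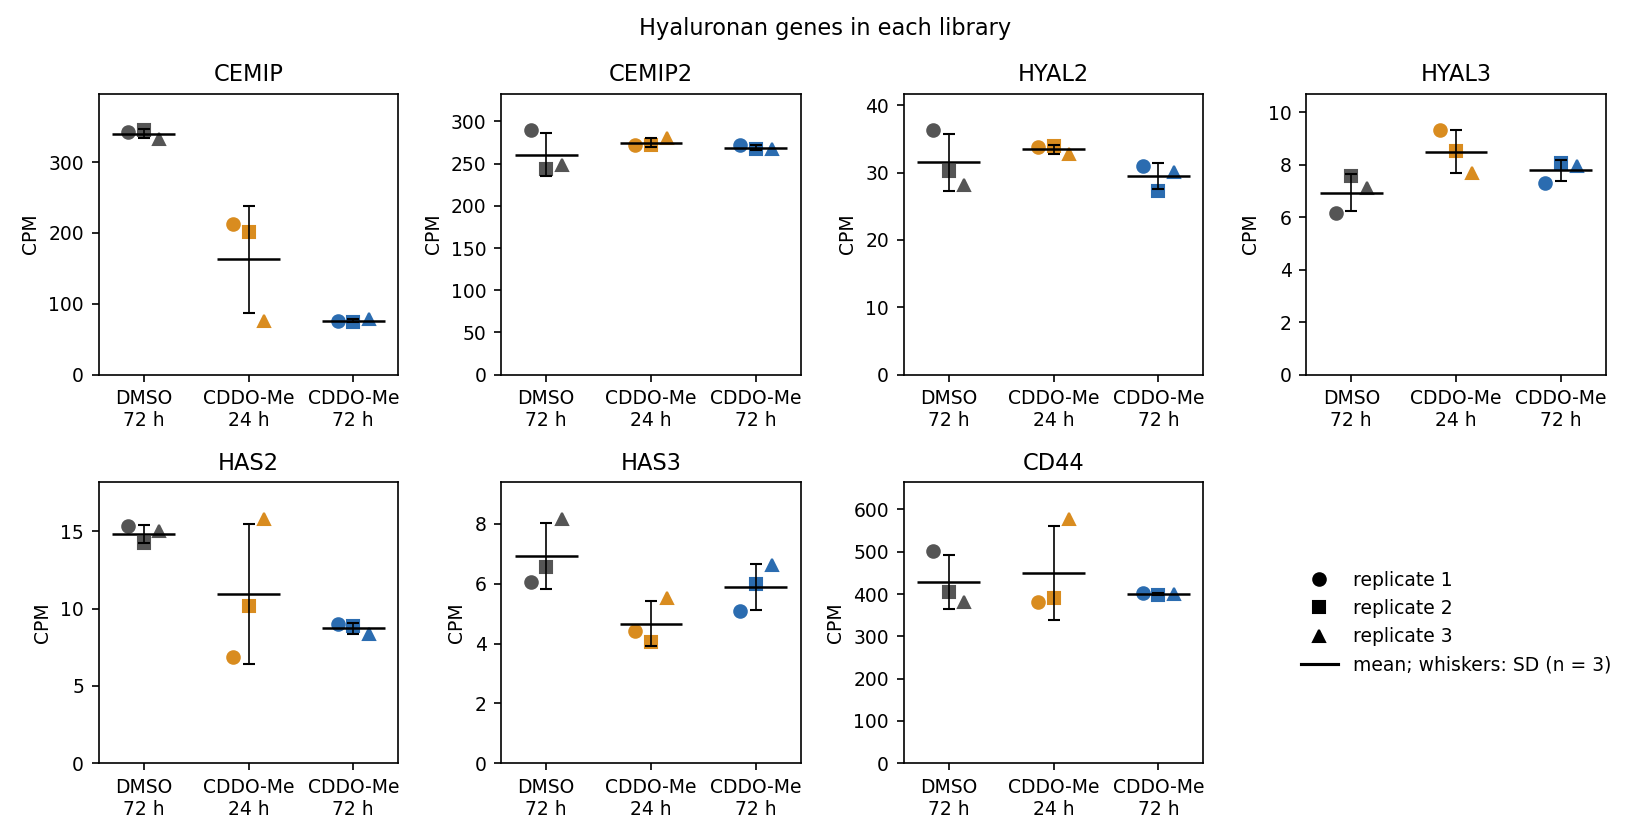
Level of each of the 7 genes (CPM, axis from 0) in the 9 libraries; points are libraries, horizontal bars the group means and whiskers the SD (n = 3). CEMIP is at 333 to 345 CPM in DMSO and at 74.5 to 78.8 in CDDO-Me 72 h, with CDDO-Me 24 h replicate 3 (76.1) at the lower level, while the CD44 and HAS2 values of that library are the highest of all 9.

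CEMIP2, the transmembrane relative of CEMIP (ENSG00000135048, chromosome 9, 71683366 to 71816690, minus strand), differed little between groups. It was at 290, 244 and 248 CPM in DMSO, at 272, 272 and 281 in CDDO-Me 24 h, and at 272, 267 and 267 in CDDO-Me 72 h. All treated libraries lay inside the range of DMSO. The log2 fold change was 0.08 ± 0.08 (SE) at 24 h (edgeR quasi-likelihood test, adjusted p 0.743) and 0.05 ± 0.08 at 72 h (adjusted p 0.816). The 95% interval of the 72 h fold was 0.921 to 1.16, so a change as large as that of CEMIP lay outside it.

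HYAL2, a GPI-anchored hyaluronidase, and HYAL3, a less studied member of its family, lie near each other on chromosome 3, HYAL2 (ENSG00000068001) at 50317790 to 50322906 and HYAL3 (ENSG00000186792) at 50292831 to 50299468, both on the minus strand. HYAL2 was at 36.3, 30.2 and 28.2 CPM in DMSO, at 33.8, 33.9 and 32.7 in CDDO-Me 24 h, and at 30.9, 27.3 and 30.1 in CDDO-Me 72 h. Both treated groups overlapped DMSO, and all 72 h libraries were below all 24 h libraries. Its log2 fold change was 0.09 ± 0.11 at 24 h (edgeR adjusted p 0.804) and -0.10 ± 0.11 at 72 h (0.689; 95% interval of the fold 0.798 to 1.09). The difference of 72 h from 24 h was -0.18 ± 0.11 (edgeR adjusted p 0.481). HYAL3 was at 6.15, 7.55 and 7.11 CPM in DMSO, at 9.31, 8.51 and 7.67 in CDDO-Me 24 h, and at 7.32, 8.07 and 7.96 in CDDO-Me 72 h. The 24 h libraries lay above all of DMSO, by a small step, and the 72 h libraries overlapped DMSO. Its log2 fold change was 0.29 ± 0.15 at 24 h (edgeR adjusted p 0.462; fold interval 0.978 to 1.53) and 0.16 ± 0.15 at 72 h (0.623; 0.896 to 1.40).

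The make-up of the breakdown group therefore differed between groups, and since CEMIP was chosen for its fall, these shares describe it without a test. In RPKM, CEMIP held 54.5 ± 1.97% of the summed level of CEMIP, CEMIP2, HYAL2 and HYAL3 in DMSO, with libraries at 52.2 to 55.9%. In CDDO-Me 24 h it held 40.9, 39.8 and 19.9%, and in CDDO-Me 72 h 20.8 ± 0.42%. CEMIP2 went from 32.9 ± 1.89% in DMSO to 57.9 ± 0.73% at 72 h, although its own level was not called as changed. CEMIP was thus at 1.66 ± 0.15 times the RPKM of CEMIP2 in DMSO, at 0.986, 0.932 and 0.342 times in the CDDO-Me 24 h libraries, and at 0.359 ± 0.012 times in CDDO-Me 72 h. The summed RPKM of the 4 genes was 82.1 ± 3.55 in DMSO and 48.3 ± 0.65 in CDDO-Me 72 h. HYAL2 and HYAL3 were the smaller parts, at 8.44 ± 0.76% and 4.18 ± 0.58% in DMSO.

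**Figure D2:**
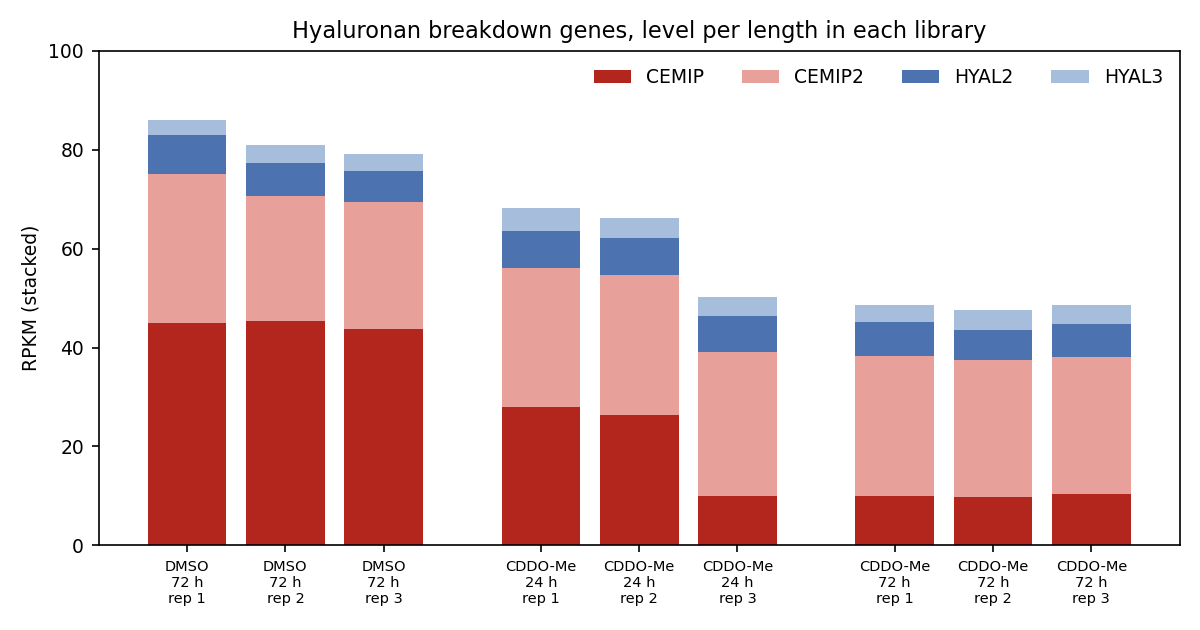
Level per length (RPKM, stacked, axis from 0) of CEMIP, CEMIP2, HYAL2 and HYAL3 in each of the 9 libraries. The CEMIP block is the tallest in DMSO (52.2 to 55.9% of the stack) and between 19.9 and 21.3% of it in CDDO-Me 72 h and in CDDO-Me 24 h replicate 3, while the CEMIP2 block keeps nearly the same height.

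HAS2 (ENSG00000170961, chromosome 8, 121612116 to 121641390, minus strand), the synthase known for most hyaluronan made by stromal cells, was lower at 72 h. Whether HAS2 passed the threshold depended on the libraries in the fit, on the test and on the filter. It was at 15.4, 14.2 and 14.996 CPM in DMSO and at 9.01, 8.86 and 8.33 in CDDO-Me 72 h. Those groups did not overlap. In CDDO-Me 24 h it was at 6.87, 10.2 and 15.8 CPM, so replicates 1 and 2 were below DMSO and replicate 3 was above it. Counts were 118 to 433 a library. The log2 fold change at 72 h was -0.77 ± 0.22 (fold interval 0.422 to 0.82), with an unadjusted p of 0.00429 and an adjusted p of 0.0620 in the edgeR quasi-likelihood fit over all 9 libraries. Without CDDO-Me 24 h replicate 3 the same difference was -0.76 ± 0.13 (edgeR adjusted p 0.000754). With only DMSO and CDDO-Me 72 h in the fit the adjusted p was 0.000381, and with DESeq2 on all libraries it was 0.0137. Also on all libraries, it was 0.000133 in edgeR without the filter and 0.000242 in limma-voom with sample weights. Of the 19 alternatives run, 7 passed at 72 h and 12 did not. Their adjusted p went up to 0.228, and it was 0.0570 in edgeR with the replicate block. At 24 h the log2 fold change was -0.42 ± 0.22 (edgeR adjusted p 0.463), and without replicate 3 it was -0.79 ± 0.15 (0.00260). So HAS2 and CEMIP parted in replicate 3: against the mean of replicates 1 and 2 it was 0.91 higher in HAS2 and 1.44 lower in CEMIP on the log2 scale.

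HAS3 (ENSG00000103044, chromosome 16, 69105564 to 69118719, plus strand), a synthase known for shorter chains, had the lowest level per length of the 7 genes. It was at 6.05, 6.56 and 8.18 CPM in DMSO, at 4.42, 4.05 and 5.52 in CDDO-Me 24 h, and at 5.09, 5.996 and 6.62 in CDDO-Me 72 h, from 76 to 169 counts a library. All 24 h libraries were below all of DMSO, and the 72 h libraries overlapped both groups. The log2 fold change at 24 h was -0.56 ± 0.19 (edgeR, unadjusted p 0.00991, adjusted p 0.181), and without replicate 3 it was -0.71 ± 0.19 (adjusted p 0.0242). At 72 h it was -0.23 ± 0.19 (edgeR adjusted p 0.556; fold interval 0.644 to 1.12). The direct difference of 72 h from 24 h was 0.33 ± 0.19 (edgeR adjusted p 0.490; 0.48 ± 0.20 and 0.121 without replicate 3), so a return towards DMSO was not shown. HAS2 and HAS3 together were at 4.86 ± 0.25 RPKM in DMSO, at 2.48, 3.196 and 4.82 in the libraries of CDDO-Me 24 h and at 3.20 ± 0.08 at 72 h, and HAS2 made up 73.1 ± 3.19%, 73.5 ± 6.44% and 65.2 ± 3.87% of that sum.

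CD44, the receptor (ENSG00000026508, chromosome 11, 35138870 to 35232402, plus strand), differed more within groups than between them. It was at 502, 404 and 381 CPM in DMSO, at 381, 391 and 578 in CDDO-Me 24 h, and at 403, 397 and 399 in CDDO-Me 72 h. Its highest values were in CDDO-Me 24 h replicate 3 and DMSO replicate 1, the libraries that stood apart in all genes, and the other 7 lay between 381 and 404. The log2 fold change was 0.07 ± 0.15 at 24 h (edgeR adjusted p 0.897) and -0.10 ± 0.15 at 72 h (0.784; fold interval 0.743 to 1.17). Without CDDO-Me 24 h replicate 3 the value at 24 h was -0.15 (edgeR adjusted p 0.299). Counts per gene do not separate the spliced forms of CD44.

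Of the 6 genes other than CEMIP, 0 passed an adjusted p under 0.05 in the edgeR quasi-likelihood test at 24 h, where 2.15% of 14965 genes tested did. At 72 h 0 of 6 passed (6.02% of all genes), and between the 2 treated groups 0 of 6 passed (1.02%). At an unadjusted p under 0.05 there was 1 at 24 h (HAS3, lower), 1 at 72 h (HAS2, lower) and 0 between the treated groups. DESeq2 called 0, 1 (HAS2) and 0 of them, and limma-voom 0 in each. Over all genes DESeq2 called 546, 1204 and 394, and limma-voom 301, 788 and 115. Without CDDO-Me 24 h replicate 3, 2 of 6 passed at 24 h (HAS2 and HAS3, lower; of 15311 genes 10.8% passed, 5.11% lower), 1 of 6 at 72 h (HAS2, lower; 12.9% passed, 6.62% lower) and 0 of 6 between the treated groups (12%). Their median log2 fold change was 0.07 at 24 h, -0.10 at 72 h and -0.15 between the treated groups, where all genes tested had 0.01, 0.00 and -0.01. Groups did not overlap for HAS3 (lower; 6.74% of all genes were lower in this way) and HYAL3 (higher; 6.73%) at 24 h, for HAS2 (lower; 15.2%) at 72 h and for HYAL2 (lower; 10.2%) between the treated groups. A p above the threshold does not show that values were equal, and the intervals given with each gene bound what could have been missed.

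**Figure D3:**
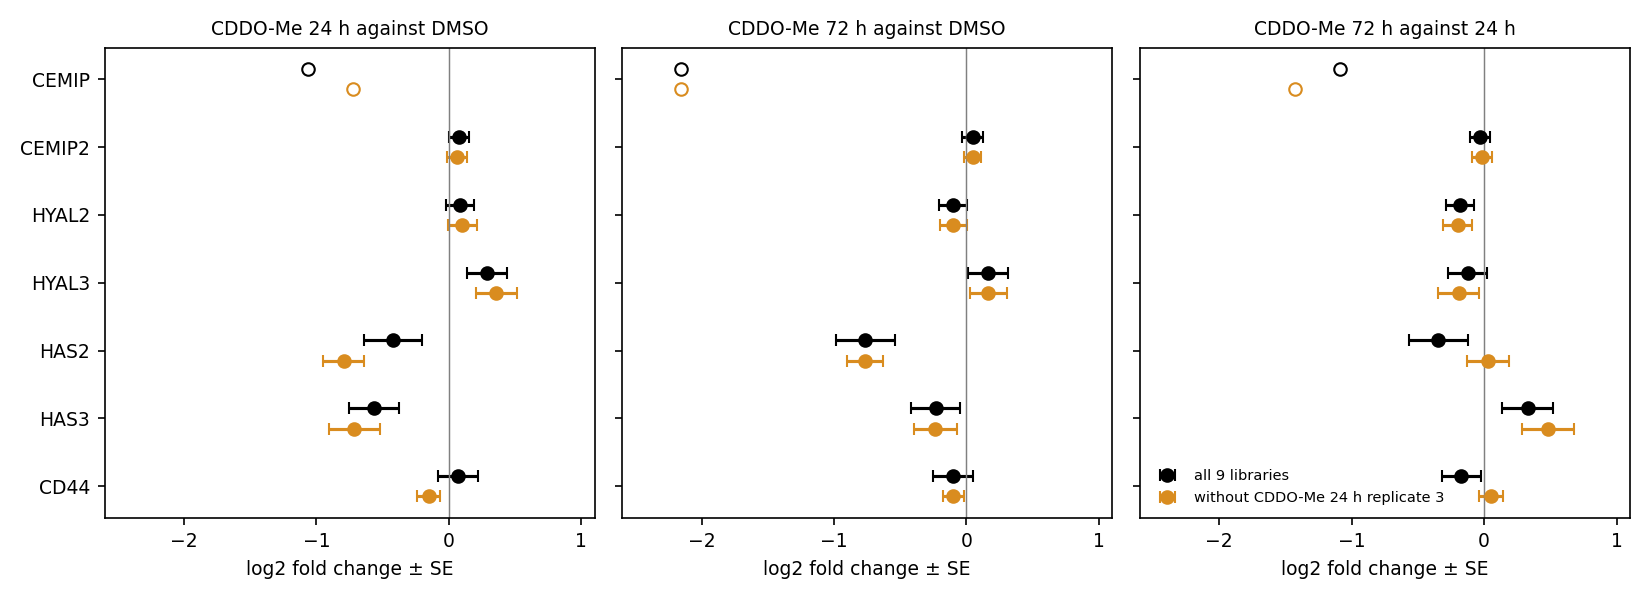
Log2 fold change of the 7 genes in the 3 comparisons, fitted over all 9 libraries (black) and without CDDO-Me 24 h replicate 3 (orange); whiskers are the SE, and the open points of CEMIP carry none because it was not tested. CEMIP is at -2.15 in both fits at 72 h, and HAS2 at 24 h moves from -0.42 to -0.79.

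By level per length in DMSO, the order was CEMIP (44.6 ± 0.82 RPKM), CD44 (42.9 ± 6.42), CEMIP2 (27.1 ± 2.64), HYAL2 (6.94 ± 0.93), HAS2 (3.55 ± 0.14), HYAL3 (3.42 ± 0.35) and HAS3 (1.31 ± 0.21). CEMIP and CD44 did not differ beyond their spread, nor did HAS2 and HYAL3. CEMIP was above 93.5% of all genes tested in DMSO, HAS2 above 46.3% and HAS3 above 29.0%. In CDDO-Me 72 h the order was CD44 (40.0 RPKM), CEMIP2 (27.9), CEMIP (10.0), HYAL2 (6.48), HYAL3 (3.83), HAS2 (2.08) and HAS3 (1.12), so CEMIP went from the first to the third place and HAS2 was behind HYAL3 in the order of means.

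The wider pathway held 46 other listed genes, of which 28 passed the filter. At 72 h 4 of 28 passed the edgeR test, 2 higher and 2 lower (14.3%, against 6.02% of all genes, 2.89% higher and 3.13% lower), and at 24 h and between the treated groups 0 did, with 8 and 7 at an unadjusted p under 0.05. DESeq2 called 2 in each of those comparisons, where it called 546 and 394 of all genes. Without CDDO-Me 24 h replicate 3 the counts were 10 (4 higher, 6 lower) at 24 h, 8 (6 higher, 2 lower) at 72 h and 12 (7 higher, 5 lower) between the treated groups, of 29 tested, in a fit that called 10.8%, 12.9% and 12% of all genes. The higher genes at 72 h in that fit include AMBP, which passed the filter only through its 72 h libraries. The median log2 fold change of the 28 genes at 72 h was -0.04, against 0.00 over all genes.

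The lower genes at 72 h were matrix partners of hyaluronan, a list in which 2 of 7 tested genes fell and 0 rose (3.13% and 2.89% of all genes). Its median log2 fold change over all libraries was 0.25. In the edgeR fit without CDDO-Me 24 h replicate 3, 2 genes of the list fell and 2 rose (PTX3 and AMBP). That fit called 12.9% of all genes, and 6.62% were lower. AMBP had 0 to 5 counts in DMSO and 12 to 16 at 72 h, and passed the filter only through its 72 h libraries. The rise of AMBP is therefore not read as a result. VCAN, the gene of versican, a large proteoglycan that binds hyaluronan, was at 152, 157 and 141 CPM in DMSO, at 123, 133 and 92.6 in CDDO-Me 24 h, and at 98.2, 93.7 and 100.0 in CDDO-Me 72 h. Both treated groups lay below DMSO with no overlap, as in 6.74% of all genes tested at 24 h and 15.2% at 72 h. CDDO-Me 24 h replicate 3 was the lowest of all 9 libraries. The 24 h difference did not pass in edgeR (-0.37 ± 0.11, adjusted p 0.113; -0.23 ± 0.07 and 0.0511 without replicate 3), but it passed in 5 of 19 alternatives: DESeq2 (0.0463), no filter (0.00337), sample weights (0.0312), without CDDO-Me 24 h replicate 2 (0.0498) and without both libraries that stood apart (0.0237). VCAN fell by 0.62 ± 0.11 on the log2 scale at 72 h (edgeR adjusted p 0.00296), and the adjusted p was at most 0.0253 over the 19 alternatives run. HAPLN1, a link protein that ties proteoglycans to hyaluronan, went from 2.32 ± 0.92 CPM in DMSO to 0.726 ± 0.135 in CDDO-Me 72 h, on few counts, and fell by 1.67 ± 0.35 (edgeR adjusted p 0.0105). This call was lost without CDDO-Me 72 h replicate 1 (0.0669) or replicate 3 (0.0513). PTX3, a pentraxin that helps to cross-link hyaluronan and had the highest RPKM of the list over the 9 libraries, was at 74.1, 117 and 125 CPM in DMSO, 230, 238 and 94.95 at 24 h and 186, 172 and 194 at 72 h. Its log2 fold change at 72 h was 0.80 ± 0.36 (edgeR adjusted p 0.296; 0.0300 without CDDO-Me 24 h replicate 3).

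Among other receptors 1 of 3 tested genes passed at 72 h, and it was higher, as were 2.89% of all genes. LAYN, the gene of layilin, a membrane lectin that binds hyaluronan, was at 66.8, 63.4 and 73.3 CPM in DMSO, at 64.0, 67.3 and 75.0 in CDDO-Me 24 h, and at 84.4, 86.4 and 85.5 in CDDO-Me 72 h. The 72 h libraries lay above all others. The share of all genes higher in this way is not given here, so this only describes the values. LAYN rose by 0.33 ± 0.08 (edgeR adjusted p 0.0298), and the call was lost in 5 of 19 alternatives, each without 1 DMSO or CDDO-Me 72 h library: DMSO replicate 1 (0.0702) or 2 (0.142), and CDDO-Me 72 h replicate 1 (0.112), 2 (0.131) or 3 (0.133). HMMR, a hyaluronan-binding protein also known for its place on the mitotic spindle, had the highest RPKM of that list and a log2 fold change of -0.12 ± 0.10 (0.572). Among CD44 partners 1 of 9 rose at 72 h, where 2.89% of all genes did. This was SPP1, the gene of osteopontin, a secreted ligand of CD44. It went from 1.64 ± 0.10 CPM in DMSO to 12.2 ± 1.34 in CDDO-Me 72 h, and was at 2.74, 3.596 and 14.9 CPM in CDDO-Me 24 h. SPP1 rose by 2.89 ± 0.64 at 72 h (edgeR adjusted p 0.0397). That call was lost in 9 of 19 alternatives (up to 0.129), among them each fit without 1 DMSO or CDDO-Me 72 h library, with 0.123, 0.129 and 0.105 without DMSO replicates 1 to 3 and 0.122, 0.101 and 0.116 without those of CDDO-Me 72 h. Without CDDO-Me 24 h replicate 3 its adjusted p at 72 h was 1.80e-09 in edgeR. The 24 h difference of SPP1 did not pass in the full fit, and was 0.95 (edgeR adjusted p 0.0102) without that library. SRGN, the proteoglycan serglycin that can bind CD44, had the highest RPKM of the list and did not pass at 72 h (-0.22 ± 0.13, 0.413). At 24 h it was at -0.21 ± 0.13 (edgeR adjusted p 0.564), and at -0.41 ± 0.08 (0.00355) without replicate 3. In that fit 4, 2 and 3 of the 9 CD44 partners passed in the 3 comparisons, where 10.8%, 12.9% and 12% of all genes did.

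The 7 genes that make the sugar precursors held 0 edgeR calls in the 3 comparisons, with 2, 2 and 1 at an unadjusted p under 0.05. Of the 7, 4, 1 and 3 passed without CDDO-Me 24 h replicate 3, where 10.8%, 12.9% and 12% of all genes did. UAP1, which forms UDP-N-acetylglucosamine, had the highest RPKM of these over the 9 libraries and a log2 fold change of -0.18 ± 0.14 at 72 h (edgeR adjusted p 0.560), and at 24 h of -0.25 ± 0.14 (0.528), or -0.49 ± 0.08 (0.000424) without replicate 3. UGDH, which makes UDP-glucuronic acid and is singled out here after its values were seen, was at 182, 183 and 178 CPM in DMSO, at 169, 182 and 359 in CDDO-Me 24 h, and at 287, 287 and 304 in CDDO-Me 72 h. All 72 h libraries were above all of DMSO, and at 24 h only replicate 3 was. That too is a description, without the share of all genes higher in this way. Its log2 fold change at 72 h was 0.69 ± 0.26 (edgeR adjusted p 0.194) over all libraries and 0.70 ± 0.06 (1.13e-07) without CDDO-Me 24 h replicate 3. The other synthase and breakdown enzymes were either tested with 0 of 2 called by edgeR and 0 at an unadjusted p under 0.05 (HEXA and GUSB, exoglycosidases of the lysosome) or too low to test: HAS1 had 0 to 13 counts a library, HYAL1 2 to 14, and HYAL4 and SPAM1 0. Without CDDO-Me 24 h replicate 3, 3 of this list were tested and 0 passed in edgeR. Of these, 2, 0 and 1 had an unadjusted p under 0.05 in the 3 comparisons. The endothelial uptake receptors LYVE1, STAB1 and STAB2 had 0, 0 to 5 and 0 to 19 counts.

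**Figure D4:**
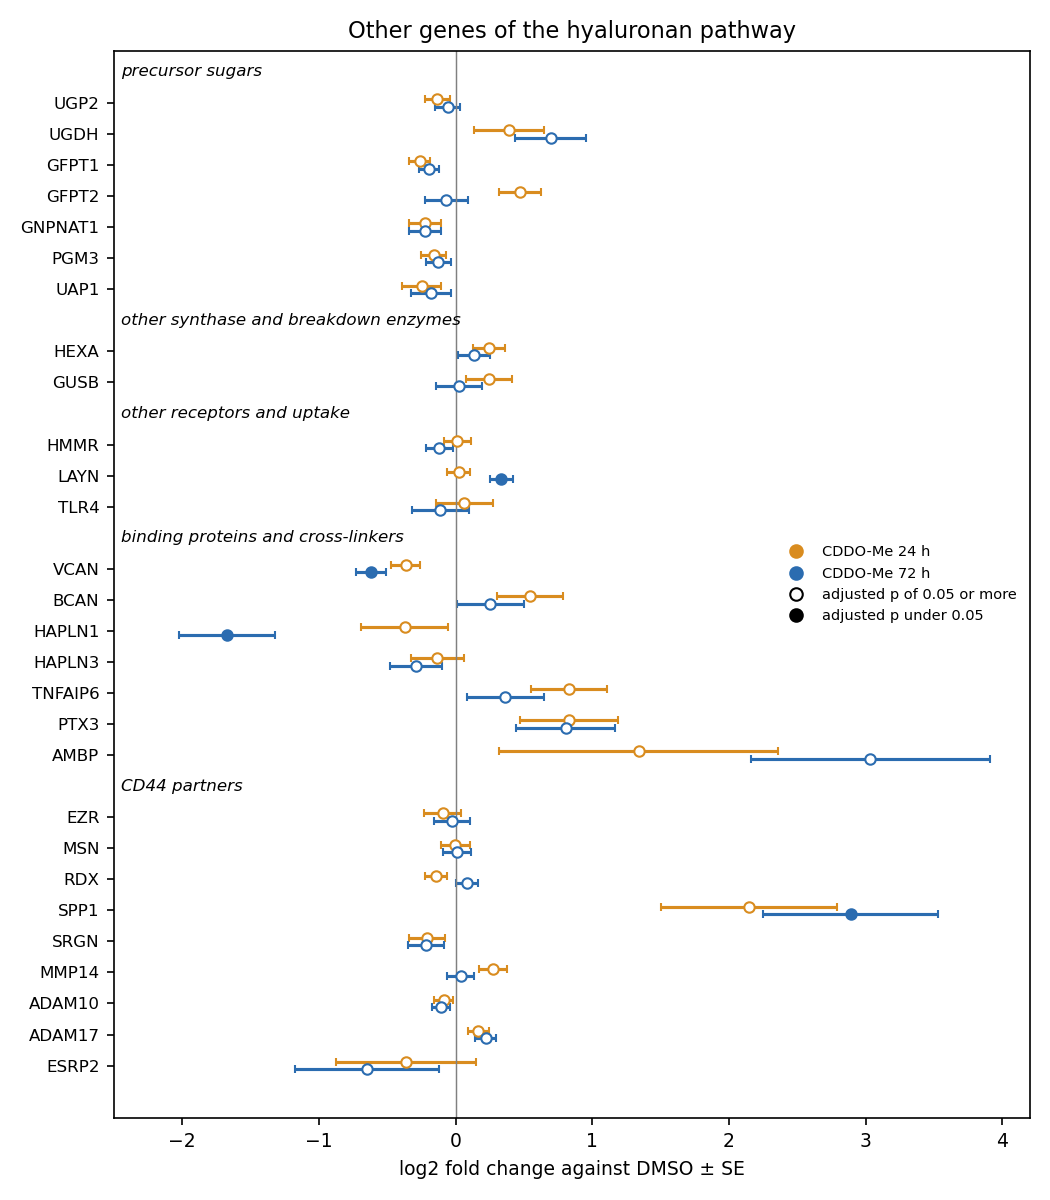
Log2 fold change against DMSO, with its SE, of the 28 other hyaluronan pathway genes that were tested, in CDDO-Me 24 h (orange) and 72 h (blue); filled points have an adjusted p under 0.05. The 4 filled points are all at 72 h: LAYN (0.33), VCAN (-0.62), HAPLN1 (-1.67) and SPP1 (2.89).

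Reads from exons that overlap another gene cannot be assigned with certainty, on opposite strands because the libraries do not keep the strand, and for HYAL2 and HYAL3 because the neighbours lie on the same strand. The exons of CEMIP shared 224 bases (2.94%) with MESD, those of HAS2 201 (4.80%) with HAS2-AS1, those of HAS3 365 (6.90%) with CHTF8, those of HYAL2 509 (11.2%) with TUSC2, those of HYAL3 248 (12.2%) with NAA80 and 43 (2.12%) with IFRD2, and those of CD44 84 with CD44-AS1. MESD, a chaperone for receptors of the LDL receptor family, was at a log2 fold change of -0.02 ± 0.08 at 72 h (edgeR adjusted p 0.913). HAS2-AS1 had only 3 to 18 counts a library. NAA80 was at 0.37 ± 0.17 at 24 h (edgeR adjusted p 0.356), close to the 0.29 of HYAL3. None of the 6 overlapping genes that were tested passed the threshold in any comparison, and their lowest adjusted p was 0.352 in edgeR. Unadjusted p-values under 0.05 were those of NAA80 at 24 h and of HAS2-AS1 between the treated groups.

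The genes whose levels followed CEMIP most closely over the 9 libraries were found by the root mean square of the differences between centred log2 CPM, among 12081 genes with an average log2 CPM of at least 1. They were TINAGL1 (0.181), PTPRB (0.208), GPRC5B (0.241), LTBP3 (0.265) and NRP2 (0.296), where the median of all compared genes was 0.98. TINAGL1, a secreted matrix glycoprotein, was at 23.3, 10.6 and 6.18 CPM on average in DMSO, CDDO-Me 24 h and CDDO-Me 72 h. PTPRB, a receptor tyrosine phosphatase best known from endothelium, was at 13.2, 6.11 and 2.90. GPRC5B, an orphan receptor of the G protein-coupled class, was at 46.9, 21.2 and 8.72. LTBP3, which binds latent TGF-beta in the matrix, was at 76.0, 53.8 and 18.7, and NRP2, a receptor for semaphorins and VEGF proteins, at 89.0, 50.3 and 28.1. In all 5 genes CDDO-Me 24 h replicate 3 was below replicates 1 and 2, for example at 4.97 CPM against 14.1 and 12.7 in TINAGL1. These genes were selected for likeness to CEMIP, so their values are a description.

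**Figure D5:**
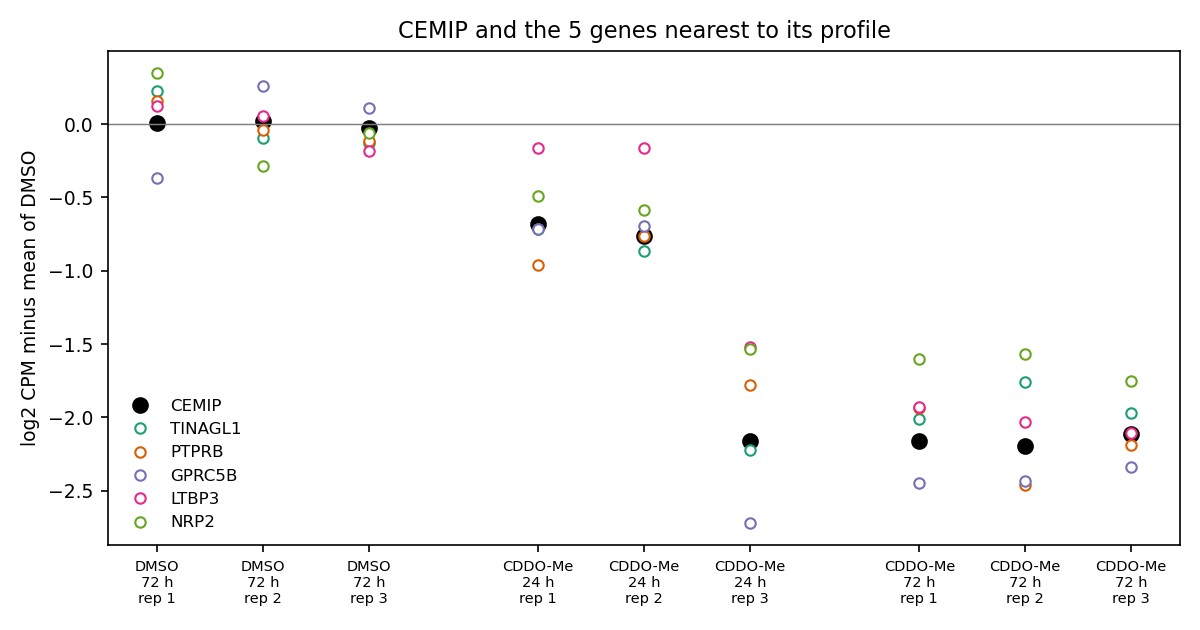
Log2 CPM minus the mean of DMSO in each library for CEMIP (filled) and the 5 genes nearest to its profile (open). CEMIP and all 5 are lower in CDDO-Me 24 h replicate 3 than in replicates 1 and 2, and CEMIP reaches the level of CDDO-Me 72 h there, with a log2 difference of -0.01 from its mean.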

How the data were processed

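Per the labels' protocols, RNA of AC16 monolayers was selected for poly(A) and made into unstranded TruSeq v2 libraries. The authors deposited whole-number counts of reads per Ensembl gene, not normalized. STAR, SAMtools, Subread, featureCounts and GRCh38 (hg38) are listed in the submitters' processing notes. Not given in the sources used here are versions, the annotation release and how reads with several matches were counted, which could lower genes with near-identical copies. Of 58299 identifiers, 57717 matched a symbol.

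Samples were grouped by their treatment labels. Counts of all 9 libraries were fitted in edgeR 4.0.16 (R 4.3.3) with the default expression filter of that package (14965 genes kept, with 99.87 to 99.90% of counts), TMM factors, 1 mean per group and the quasi-likelihood test, with Benjamini-Hochberg adjustment over all genes tested and a threshold of 0.05. The fit was also run on simulated counts with known changes. No simulated library stood apart from its group, so that run says nothing about such libraries. SE and 95% intervals came from the same fit, and CPM, RPKM and log2 CPM (prior count 2) from the scaled counts. A library's 3 counts, the limit that a count of 0 allows, equal 0.110 to 0.175 CPM, for counting error only. Alternatives were DESeq2 1.42.0, limma 3.58.1 (voom, with and without sample weights), RLE factors, no filter, the replicate block, fits of 2 groups, and leaving out libraries. Exact permutation of 3 against 3 libraries cannot give a p below 0.10 and was not used. The 7 genes and all lists were chosen with earlier results of these data known.

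Genes named are the 7, up to 4 called genes per list by adjusted p plus the one of highest mean RPKM, the 5 nearest CEMIP, NQO1 and HMOX1, and genes with overlapping exons; UGDH is an exception. 1 further pathway gene was left out of the lists and is not reported here. Promoter windows are from RefSeq (GRCh38.p14), the build of the deposited coordinates.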

Additional observations from a re-analysis of the deposited data

How the results depend on the processing

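The log2 fold change of CEMIP at 72 h lay between -2.18 and -2.13 over the 19 alternatives run, against -2.15. Of the 912 values of 16 other named genes under these alternatives, 787 kept their direction and side of the threshold, 66 passed only in the alternative, 16 passed only in the full fit and 43 changed sign, 42 of them with neither value past the threshold. The exception was SRGN between the treated groups, at 0.19 without CDDO-Me 24 h replicate 3 and DMSO replicate 1 against -0.01.

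None of the values that changed sign passed in the full fit. Over the fits without libraries, those at 24 h ran from -0.15 to 0.20 for CD44, -0.061 to 0.080 for LAYN, -0.58 to 0.13 for HAPLN1, -0.10 to 0.14 for HMMR and -0.044 to 0.58 for UGDH. At 72 h they ran from -0.17 to 0.014 for HYAL2, -0.18 to 0.027 for CD44, -0.10 to 0.23 for GUSB and -0.20 to 0.0095 for HMMR. Between the treated groups they ran from -0.58 to 0.030 for HAS2, -0.28 to 0.053 for CD44, -0.075 to 0.31 for UAP1, -0.35 to 0.20 for PTX3 and -0.14 to 0.19 for SRGN. With sample weights CD44 was at -0.057, LAYN at -0.0042 and HAPLN1 at 0.0050 at 24 h, and CD44 at 0.012 and SRGN at 0.14 between the treated groups. There, limma-voom gave 0.096 for PTX3 and 0.012 for SRGN, the replicate block 0.013 and 0.0062, and no filter 0.0045 for SRGN. The cause was not tested.

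The counts of calls moved most with those libraries. Of the 6 genes other than CEMIP, 2 passed at 24 h with voom sample weights and 2 without both libraries that stood apart (0 to 2 over the fits without 1 library). At 72 h, 1 passed with DESeq2, 1 without the filter, 1 with sample weights, 1 with only the groups compared and 1 without both libraries (0 to 1 without 1 library). Of the wider pathway at 24 h, 2 passed with DESeq2, 3 without the filter, 14 with sample weights and 17 without both (0 to 10 without 1 library). At 72 h the 4 became 9 with sample weights, 7 with only the groups compared and 13 without both (1 to 8). Between the treated groups 2 passed with DESeq2, 3 without the filter, 14 with sample weights and 17 without both (0 to 12). Over all genes, the 321, 901 and 152 calls at 24 h, 72 h and between the treated groups became 1657, 1972 and 1843 without CDDO-Me 24 h replicate 3. They became 546, 1204 and 394 with DESeq2, and 662, 1249 and 507 without the filter. With sample weights they were 1640, 2604 and 2938, and without both libraries 3464, 2724 and 3471. With only the groups compared they were 100, 1776 and 157. The counts above are therefore not read as particular to these genes.

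Whether replicate numbers pair the libraries could not be decided. The 9 correlations of same-numbered libraries were weak, at -0.03 to 0.08, yet 7 of 9 libraries correlated best with their own number. With the replicate block, 0, 0 and 0 of the 6 genes and 0, 3 and 0 of the wider pathway passed in the 3 comparisons, CEMIP was at -2.15, SPP1 at 72 h no longer passed (0.0541), and the calls over all genes were 358, 963 and 219. Few counts limit HAPLN1 (12 to 16 in the CDDO-Me 72 h libraries) and HAS3 (76 to 169).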
